A study of Mus musculus with 5 samples.

Results

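The GTPases of immunity-associated proteins (GIMAP) are encoded in mouse by a cluster of genes on chromosome 6. The 8 genes Gimap1, Gimap3, Gimap4, Gimap5, Gimap6, Gimap7, Gimap8 and Gimap9 were taken by name from a table of 25549 gene models. Of these names, 7 had exactly 1 row each, all 7 with a p-value, and Gimap7 had no row, so its expression was not analysed here and it enters only the comparisons of annotated sequence. The family was selected on the fold changes and p-values of this same comparison, so the members' values are a description and carry no support of their own. The RNA was that of mast cells grown from C57BL/6 bone marrow over 6 to 8 weeks, with rmIL-3 (recombinant mouse interleukin-3) at 50 ng/mL as the growth factor. By genotype, 3 samples were Cpa3-Cre;miR-9∆fl/∆fl, called the miR-9 line here, and 2 were Cpa3-Cre controls. Cre recombinase under the Cpa3 promoter (Cpa3 encodes the carboxypeptidase of mast cells) was thus present in both groups, and the mice were matched for age and sex, with no age given. The labels do not state which way the ∆fl allele moves miR-9, nor whether each sample had a mouse or culture of its own, so the deposited p-values measure a spread between samples that may be technical. The values used were the authors' own fold change and p-value per gene. The level of a gene in each library, its standard error and its read depth were not used here, so no mean with an error is printed.

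GIMAP proteins are small GTPases related to the septins. They sit on membranes of lymphocytes, some through a hydrophobic tail, and are known chiefly for keeping T cells, B cells and NK cells alive. Loss of Gimap5 in mouse and rat causes a loss of peripheral T cells. The genes are also expressed in other blood cells and in endothelium.

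Gimap3 and Gimap5 are close copies of each other, and how far their reads can be told apart bears on every value of the pair. Their coding sequences (906 bases for Gimap3, 927 for Gimap5 in GENCODE M21, GRCm38) were identical at 90.3 percent of aligned bases, or 86.7 percent with gaps counted. In the other 27 pairs of members identity with gaps counted ran from 30.1 percent to 64.2 percent, the highest being between Gimap9 and Gimap7. The longest stretch without a difference between Gimap3 and Gimap5 was 140 bases, against at most 17 bases in any other pair. It lies at chr6:48765681-48765820 on the minus strand in Gimap3 and at chr6:48752684-48752823 on the plus strand in Gimap5, within the coding sequence of each. It is longer than a 50-base read and is shown because such a read inside it fits both genes.
Gimap3 and Gimap5: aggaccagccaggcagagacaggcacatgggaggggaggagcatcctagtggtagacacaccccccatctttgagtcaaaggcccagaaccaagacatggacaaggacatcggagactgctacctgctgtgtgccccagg
Over the whole alignment the pair had 87 mismatches and 37 gap bases. The gaps lay towards the 2 ends, outside a central ungapped block of 759 bases that held 36 of the mismatches. The 150 bases with the most mismatches within that block are at chr6:48765186-48765335 (minus strand) in Gimap3 and chr6:48753169-48753318 (plus strand) in Gimap5. Capitals mark the 18 bases that differ, which a read must cover to be told apart here.
Gimap3: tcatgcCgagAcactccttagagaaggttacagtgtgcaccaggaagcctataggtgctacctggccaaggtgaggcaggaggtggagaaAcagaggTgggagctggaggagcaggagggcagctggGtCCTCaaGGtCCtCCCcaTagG
Gimap5: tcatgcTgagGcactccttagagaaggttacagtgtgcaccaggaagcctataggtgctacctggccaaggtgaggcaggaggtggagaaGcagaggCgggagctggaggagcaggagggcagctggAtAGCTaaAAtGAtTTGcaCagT

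**Figure D1:**
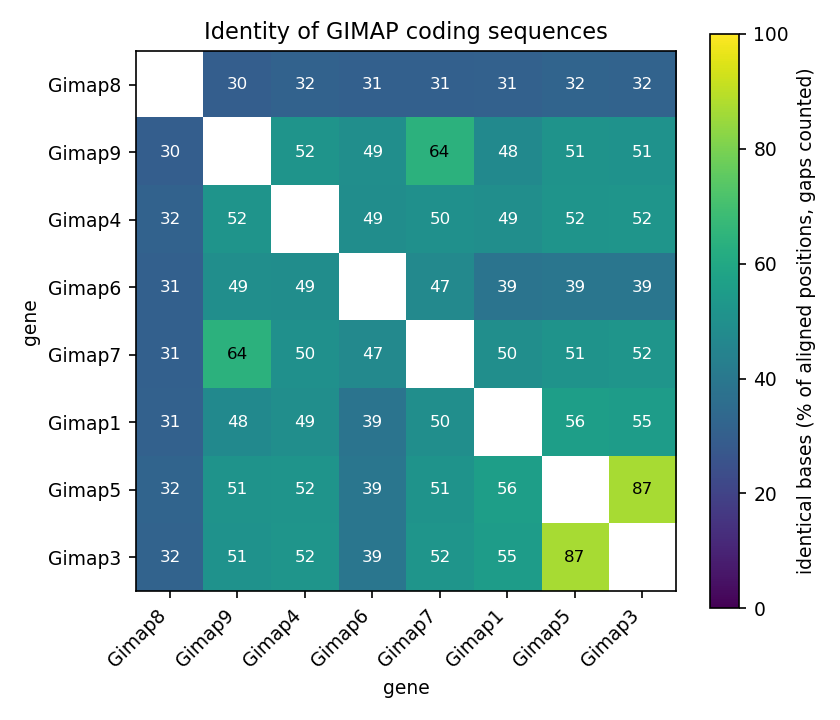
Share of identical bases between the longest annotated coding sequences of the 8 GIMAP genes, in percent of aligned positions with gaps counted as differences, in chromosomal order. Gimap3 and Gimap5 stand at 86.7 percent, and the next pair, Gimap9 and Gimap7, at 64.2 percent. The coding sequence of Gimap8, 2067 bases, is the longest, and its unmatched bases count as gaps.

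Gimap3 was the member that differed most between the genotypes. Its transcript was 4.77-fold lower in the miR-9 line in the authors' deposited table, a log2 fold change of -2.25, which puts it at 21 percent of the Cpa3-Cre control. The deposited p-value was 1.99e-06 in the authors' deposited table, and the Benjamini-Hochberg adjusted p over the 24071 rows with a p-value was 0.00240. It was called lower at an adjusted p under 0.05, as were 40 of those rows (0.166 percent), while 59 rows (0.245 percent) were called higher and 99 (0.411 percent) in either direction. Its p-value also met the threshold of 0.0001 that the study's design names, as did those of 72 rows (0.299 percent). By log2 fold change it ranked 10 from the lowest and by p-value 20 from the smallest among the 24071 rows of the authors' deposited table. In mouse Gimap3 is known to work with Gimap5 in T cell survival and to influence how mitochondrial DNA variants segregate in blood tissues.

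The other 6 members did not pass the test. Gimap5, which encodes a lysosomal membrane GTPase needed for T cell survival, was 1.89-fold lower in the miR-9 line by the authors' deposited table, a log2 fold change of -0.92 (p = 0.0281, Benjamini-Hochberg adjusted p = 0.521). Of all rows, 4.08 percent lay lower than Gimap5 in the authors' deposited table. Gimap8, the long member with several GTPase domains in tandem, stood at -0.78, 1.71-fold lower, by the authors' deposited table, with p = 0.0695 (adjusted p = 0.682). Gimap8 lies at one end of the cluster, while Gimap5 and Gimap3 are neighbours at the other end. At an unadjusted p under 0.05 stood 2 of the 7 members, Gimap3 and Gimap5, both lower, as did 975 of all rows in the lower direction (4.05 percent) and 1906 in either (7.92 percent).

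The remaining members were closer to the control. Gimap6, whose protein binds the autophagy protein GABARAPL2, stood at -0.49 by the authors' deposited table, with p = 0.222 (adjusted p = 0.834). Gimap1, required for mature T and B cells in mouse, was at -0.22 by the authors' deposited table, with p = 0.496 (adjusted p = 0.922). Gimap4, which promotes the death of T cells in mouse, was at 0.03, and Gimap9 at 0.0054, in the authors' deposited table, with p = 0.955 for Gimap4 and p = 0.987 for Gimap9. Over the 7 members, 5 values were below 0 and 2 above, with a median of -0.49; over all rows with a p-value 59.8 percent were below 0 and the median was -0.092. The differences between members were not tested, since no error per gene was used, and a p that misses the threshold does not show that a member was equal in both genotypes. In RNA of a whole culture, fewer cells that express a gene and less of its RNA per cell cannot be told apart.

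**Figure D2:**
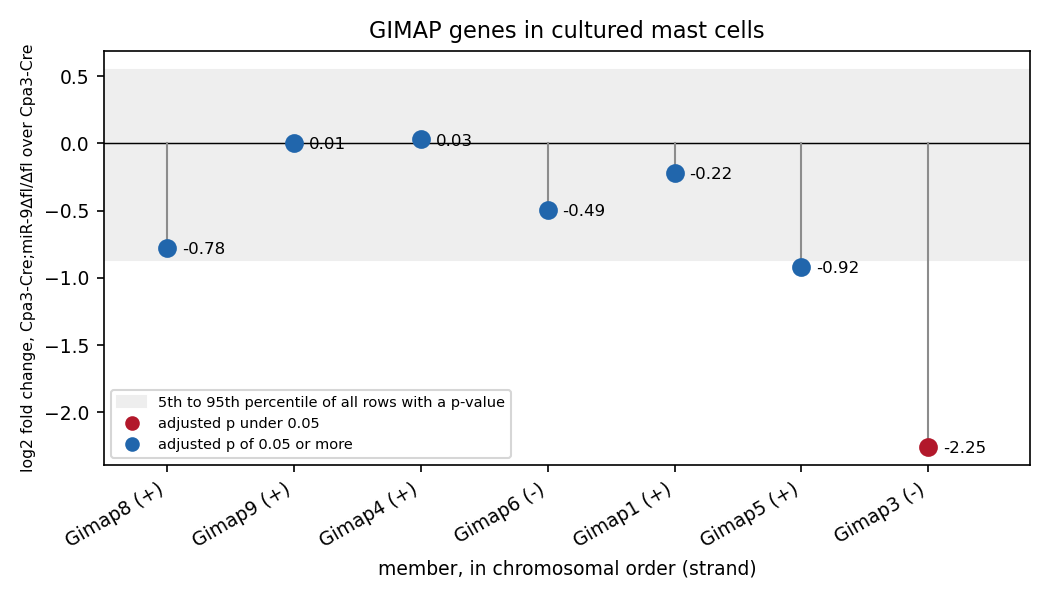
Log2 fold change, miR-9 line relative to Cpa3-Cre control, from the authors' deposited table, for the 7 GIMAP genes with a row, in chromosomal order with their strand; the grey band runs from -0.87 to 0.55 and leaves out 5 percent of the 24071 rows at either end. Gimap3 (-2.25, red, adjusted p = 0.00240) lies far under the band, Gimap5 (-0.92) just under it, and the other members inside it.

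The gene models behind these values differ in how much of each transcript they hold. The Gimap3 row, at chr6:48765089-48766519 on the minus strand, has 2 exons and 906 bases, and every base of it is coding sequence or stop codon. GENCODE M21 gives Gimap3 exons of 2577 bases between 48764464 and 48770851, so 35.2 percent of them are in the counted model, and reads on the untranslated exons of Gimap3 lie outside it. The share was 56.7 percent for Gimap5, 60.9 percent for Gimap1, 98.8 percent for Gimap8 and 100 percent for Gimap4, Gimap6 and Gimap9. Of the 857 distinct 50-base windows in the Gimap3 model, 190 (22.2 percent) also occur in a Gimap5 transcript. The same windows make up 8.08 percent of the 2352 in the Gimap5 model. The authors counted with HTSeq per the submitters' processing notes, with unstated settings, and whether reads of the shared stretch entered a count was not tested. Mates of a read pair that reach beyond the stretch can still assign it.

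Gimap1 shares ground with a transcript on the other strand. The row Gm3345, a noncoding RNA named Gimap1os in GENCODE M21 at the same position, overlaps it by 1568 bases, of which 103 are exonic in both. Gm3345 stood at -0.75 in the authors' deposited table, with p = 0.0422 and an adjusted p of 0.598, against -0.22 for Gimap1. The library kit marks strand, but no source states whether the counting used it. Which of the 2 rows, if either, took the reads on the shared 103 bases was not tested. For Gimap1, 9.74 percent of 50-base windows also occur in transcripts of other genes, the antisense RNA among them. Here and in the Gimap5 value of 8.08 percent, windows shared with only Gm28053, an annotated read-through transcript across Gimap7, Gimap1 and Gimap5, are left out. For Gimap6 the share was 0.170 percent, and for Gimap4, Gimap8 and Gimap9 it was 0.

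**Figure D3:**
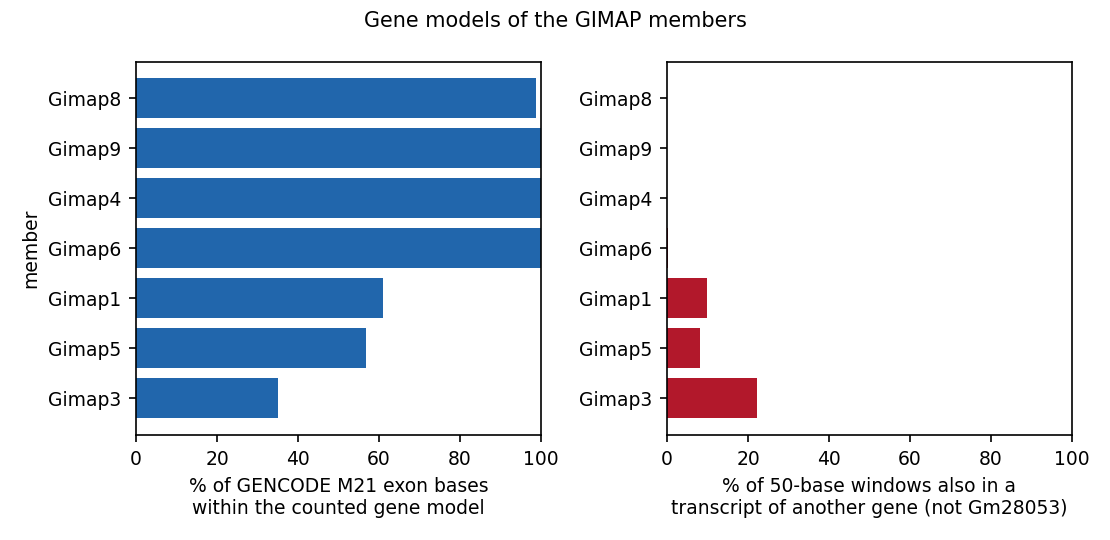
Left, percent of the exon bases annotated in GENCODE M21 that lie within the gene model counted by the authors; right, percent of 50-base windows of that model that also occur in a transcript of another gene, leaving out the read-through Gm28053. Gimap3 has the smallest share of its exons counted (35.2 percent) and the largest share of windows in another gene (22.2 percent).

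The cluster spans 119 kb, from 48647234 to 48766519 on chromosome 6 (GRCm38), and the rows around it were read to see how far low values extend. In chromosomal order the members with a row are Gimap8, Gimap9, Gimap4, Gimap6, Gimap1, Gimap5 and Gimap3, with Gimap6 and Gimap3 on the minus strand and the others on the plus strand. Within 1000000 bases of either end there were 42 other rows with a p-value. Of these 24 were below 0 (57.1 percent, against 59.8 percent of all rows), with a median of -0.014 in the authors' deposited table. None of the 42 was called at a Benjamini-Hochberg adjusted p under 0.05 (99 of all rows, 0.411 percent, were). An unadjusted p under 0.05 stood for 5, of which 4 were lower and 1 higher in the miR-9 line. Of all rows, 7.92 percent had such a p in either direction and 4.05 percent in the lower. The lower 4 were Gm3345, Tmem176a, Tmem176b and Sspo, and the higher 1 was Fam221a (1.03 in the authors' deposited table, p = 0.0224).

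Beyond Gimap3 the next row is Tmem176b, 67291 bases away, followed by Tmem176a. These are paired genes for endosomal membrane proteins of myeloid cells, whose rows are transcribed away from each other with 108 bases between them. Tmem176b was 2.68-fold lower in the miR-9 line (log2 fold change -1.42, p = 0.000462, adjusted p = 0.0729) and Tmem176a 2.61-fold lower (-1.38, p = 0.000420, adjusted p = 0.0703) in the authors' deposited table. Both missed the adjusted threshold of 0.05 and passed at 0.10, as did 68 rows (0.282 percent) in the lower direction and 233 (0.968 percent) in either. Aoc1, the diamine oxidase that degrades histamine, follows at -0.82 by the authors' deposited table, with p = 0.0575 (adjusted p = 0.650). On the other side the nearest row, AI854703, 13544 bases before Gimap8, stood at -0.81 by the authors' deposited table, with p = 0.0967 (adjusted p = 0.727). Farther out on that side Sspo stood at -1.09 by the authors' deposited table, with p = 0.0299 (adjusted p = 0.530). Of the 28 rows before the cluster 14 were below 0, with a median of -0.0048, and of the 13 beyond it 9 were below 0, with a median of -0.35. Within 500000 bases the medians were 0.0070 over 13 rows before the cluster and -0.56 over 9 rows beyond it, 8 of which were below 0. The 2 sides were not tested against each other.

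**Figure D4:**
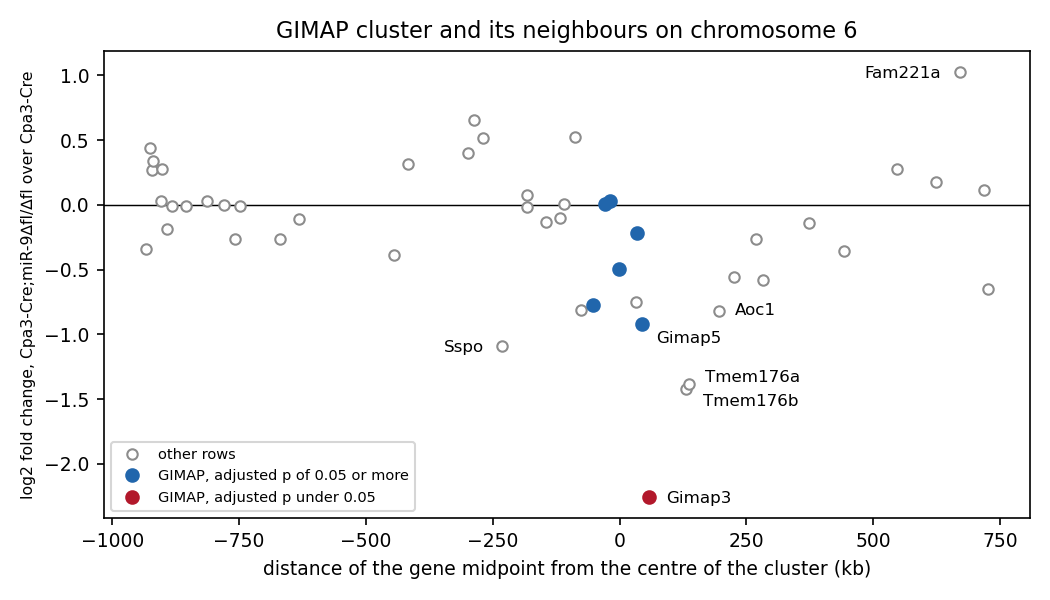
Log2 fold change, miR-9 line relative to Cpa3-Cre control, from the authors' deposited table, against the distance of each gene's midpoint from the centre of the GIMAP cluster, in kb, for rows with a p-value within 1000000 bases of the cluster. GIMAP genes are filled and other rows open. Gimap3 (-2.25) is lowest of the rows shown and Tmem176b (-1.42) next, while Gimap4 and Gimap9 lie at 0.03 and 0.0054 inside the cluster.

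Since the genotypes differ at an allele of miR-9, the 3' untranslated regions of the 8 genes were searched for its seed matches. The mature sequences below are those of RefSeq (GRCm38.p6), equal at the 3 loci Mir9-1, Mir9-2 and Mir9-3, with the seed, bases 2 to 8, in capitals.
miR-9-5p: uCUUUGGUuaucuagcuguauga
miR-9-3p: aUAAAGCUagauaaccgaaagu
The 7-base match to the miR-9-5p seed was present in the longest annotated 3' untranslated region of 2 of the 8 genes, Gimap8 and Gimap1, and in 12.2 percent of 21020 genes. That of miR-9-3p was present in 1, Gimap1, and in 11.3 percent of genes. The sites are printed with the match in capitals; they lie on the plus strand, at chr6:48660112-48660140 for Gimap8 and, for Gimap1, at chr6:48743486-48743514 (5p) and chr6:48743405-48743433 (3p).
Gimap8, miR-9-5p: cccctcgcatcACCAAAGgattttacctc
Gimap1, miR-9-5p: gtggcggcagtACCAAAGgcaccagggac
Gimap1, miR-9-3p: attctgctcagAGCTTTAatgattcacag
Neither match was present in the 625 bases of Gimap3 or the 786 bases of Gimap5, the members with the lowest values. Gimap8, with a match to miR-9-5p, stood at -0.78, and Gimap1, with a match to both, at -0.22 in the authors' deposited table. A match of letters is not a shown site, and its absence says only that these letters are not in the region searched.

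The promoters of Gimap3 and Gimap5 were compared because the coding sequences of the pair are so alike. The sequences are those of RefSeq (GRCm38.p6), 250 bases before to 50 bases after the start of transcription. That of Gimap3 lies at chr6:48770802-48771101 on the minus strand, outside the counted gene model, and that of Gimap5 at chr6:48745947-48746246 on the plus strand. Capitals mark AGGAAG, a core recognised by ETS family factors, searched on both strands.
Gimap3: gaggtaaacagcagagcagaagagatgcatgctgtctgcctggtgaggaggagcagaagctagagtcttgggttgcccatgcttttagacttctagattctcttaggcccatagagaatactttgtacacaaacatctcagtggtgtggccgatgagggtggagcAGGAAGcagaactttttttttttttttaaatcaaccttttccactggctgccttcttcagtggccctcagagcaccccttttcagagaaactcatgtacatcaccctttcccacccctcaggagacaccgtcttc
Gimap5: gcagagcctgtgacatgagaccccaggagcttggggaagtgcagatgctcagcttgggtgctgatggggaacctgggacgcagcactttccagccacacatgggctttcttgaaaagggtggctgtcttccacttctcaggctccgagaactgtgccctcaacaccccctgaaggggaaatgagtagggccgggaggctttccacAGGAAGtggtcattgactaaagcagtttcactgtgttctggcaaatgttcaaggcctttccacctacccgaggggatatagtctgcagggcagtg
The longest stretch the 2 promoters share is 7 bases, in contrast to the 140 bases within the coding sequences. RefSeq gave 9 promoters for the 8 genes, with 2 for Gimap8 that overlap (chr6:48646984-48647283 and chr6:48647111-48647410). A motif in the bases that these share counts in both. AGGAAG was present in 7 of the 9, and in 35.4 percent of 32851 mouse promoters of the same length. TGTGGT, a RUNX core, was in 3 of 9 (16.8 percent of all) and CATGTG, an E-box that the mast cell factor MITF recognises, in 5 of 9 (14.2 percent). The 5 with CATGTG were those of Gimap4, Gimap5 and Gimap7 and both of Gimap8, where the match is the same bases in both. The general E-box CANNTG, which contains CATGTG, was in 7 of 9 (72.3 percent), the STAT motif TTCNNNGAA, which can overlap AGGAAG, in 4 of 9 (8.30 percent) and TATAAA in 1 of 9 (13.6 percent). Absent from the 9 were GGGTGTG of KLF factors (7.95 percent of all promoters), the core motif of the interferon-stimulated response element (3.44 percent) and the motif AGATAA, which zinc finger factors of the GATA family recognise (11.2 percent). Each motif was searched on both strands. The motifs were chosen after the values were seen, no factor's binding was measured, and the counts are descriptions.

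GTPases of other families that interferon induces were read beside the GIMAP genes. Their list was written with earlier results of these data known, so its counts are a description. Of 15 such genes with a p-value, 3 fell, none rose and 12 did not pass, where 0.166 percent of all rows were called lower. Values below 0 numbered 12 of the 15 (80 percent), against 59.8 percent of all rows, with a median of -0.29 in the authors' deposited table. The 3 that fell were guanylate-binding protein genes, whose products act against intracellular pathogens. By the authors' deposited table Gbp5 stood at -1.95 (adjusted p = 0.00565), Gbp3 at -1.87 (adjusted p = 0.000105) and Gbp2 at -1.72 (adjusted p = 0.000533). The other guanylate-binding protein genes did not pass, with Gbp7 at -0.67, Gbp8 at -0.27, Gbp9 at 0.0062, Gbp4 at 0.11 and Gbp6 at 0.13 in the authors' deposited table. Nor did any immunity-related GTPase gene of the list, Iigp1, Irgm2, Igtp, Tgtp2, Tgtp1 and Irgm1, whose values ran between -0.56 for Iigp1 and -0.21 for Irgm1 in the authors' deposited table. Gvin1, a very large interferon-induced GTPase gene, was at -1.09 by the authors' deposited table, with p = 0.00379 (adjusted p = 0.201).

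Genes for proteins listed as reported partners of GIMAP proteins in lymphocytes gave no call, where only 0.411 percent of all rows were called. Of 10 genes with a p-value from the BCL2, GABARAP and GSK3 families, with Mif, 5 were below 0 and 5 above, with a median of -0.042 in the authors' deposited table. None was called, and 1, the cytokine gene Mif, had an unadjusted p under 0.05 (0.70 with p = 0.0228 by the authors' deposited table, adjusted p = 0.483). Gabarapl2, the partner of GIMAP6 in autophagosomes, stood at 0.037 (p = 0.880) and the survival gene Bcl2 at -0.41 (p = 0.255) in the authors' deposited table. Of 20 core autophagy genes, which include the GABARAP genes, 16 were below 0 (80 percent, against 59.8 percent of all rows). Their median of -0.075 was slightly above the -0.092 of all rows. None of the 20 was called and none had an unadjusted p under 0.05, where 0.411 percent and 7.92 percent of all rows did. Farthest from 0 among them was Atg14, a subunit of the autophagy lipid kinase complex, at -0.43 in the authors' deposited table (p = 0.0902).

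Because GIMAP genes are best known from lymphocytes, lymphoid genes were read for the same comparison. Of 42 markers named for T, B, NK and innate lymphoid cells, 29 had a p-value, and 26 of these were below 0, with a median of -0.52 in the authors' deposited table. None was called by Benjamini-Hochberg adjustment, where only 0.411 percent of all rows were. An unadjusted p under 0.05 stood for 4, as it did for 7.92 percent of all rows. Of these 4, 2 were lower and 2 higher. The lower were Cd3d, a chain of the T cell receptor complex (-1.03, p = 0.00887), and Eomes, a factor of NK and T cells (-0.96, p = 0.0221), in the authors' deposited table. Ubash3a, for a phosphatase-like regulator of T cells, was among the higher (1.09, p = 0.0283) in the authors' deposited table. By cell type, 10 of 13 T cell markers with a p-value were below 0 (median -0.34), as were all 10 B cell markers (median -0.52) and all 6 NK and innate lymphoid markers (median -0.58), against 59.8 percent of all rows. Low values were not particular to lymphoid markers. Endothelial markers (8 of 10, median -0.44) and stem and progenitor markers (7 of 9, median -0.31) also lay mostly below 0, and mast cell markers did not (4 of 16). Of the 3 T cell markers with an unadjusted p under 0.05, 1 was lower and 2 were higher. The summed level of these markers in each group was not used here, and their part in the fall of Gimap3 was not tested.

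Regulators of lymphoid cells gave no call, where 0.411 percent of all rows were called in either direction. In lists this short, so low a share leaves the absence of calls uninformative. Of 17 lymphoid transcription factor genes with a p-value 10 were below 0 (58.8 percent, against 59.8 percent of all rows). Their median was -0.26, against -0.092 over all rows. An unadjusted p under 0.05 stood for 2 of them, where 7.92 percent of all rows had one. These were the T lineage factor genes Bcl11b (-1.06, p = 0.0392) and Tcf7 (-0.86, p = 0.0460) in the authors' deposited table. Runx1 (0.15, p = 0.663), Runx3 (0.19, p = 0.558) and Ets1 (0.53, p = 0.256), for factors of the RUNX and ETS families, were above 0 in the authors' deposited table. Of 9 genes of lymphocyte quiescence and homing 8 were below 0 (88.9 percent), with a median of -0.33 and none called. Btg1, which restrains proliferation, was the 1 with an unadjusted p under 0.05 (-0.85, p = 0.0317) in the authors' deposited table.

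The values of 16 mast cell markers, all with a p-value, were read for the same comparison. Of these 12 were above 0 and 4 below (25 percent, against 59.8 percent of all rows). Their median was 0.095 in the authors' deposited table, against -0.092 over all rows. By call 1 rose (Tpsb2, a tryptase gene, at 1.60 with a Benjamini-Hochberg adjusted p of 0.0149) and none fell. Of all rows 0.245 percent were called higher and 0.166 percent lower. At an unadjusted p under 0.05 stood 2 of the 16, as did 7.92 percent of all rows. Both were higher, Tpsb2 and the chymase gene Cma1 (0.97 with p = 0.0176 by the authors' deposited table, adjusted p = 0.442). Levels of these markers were not used, so the mast cell label was not checked. The presence of a row with a p-value cannot check it, since the 10 B cell markers with a row all had one too. Kit (-0.04, p = 0.910) and Fcer1a (0.09, p = 0.815), for the receptors of stem cell factor and IgE, stood near 0 in the authors' deposited table.

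**Figure D5:**
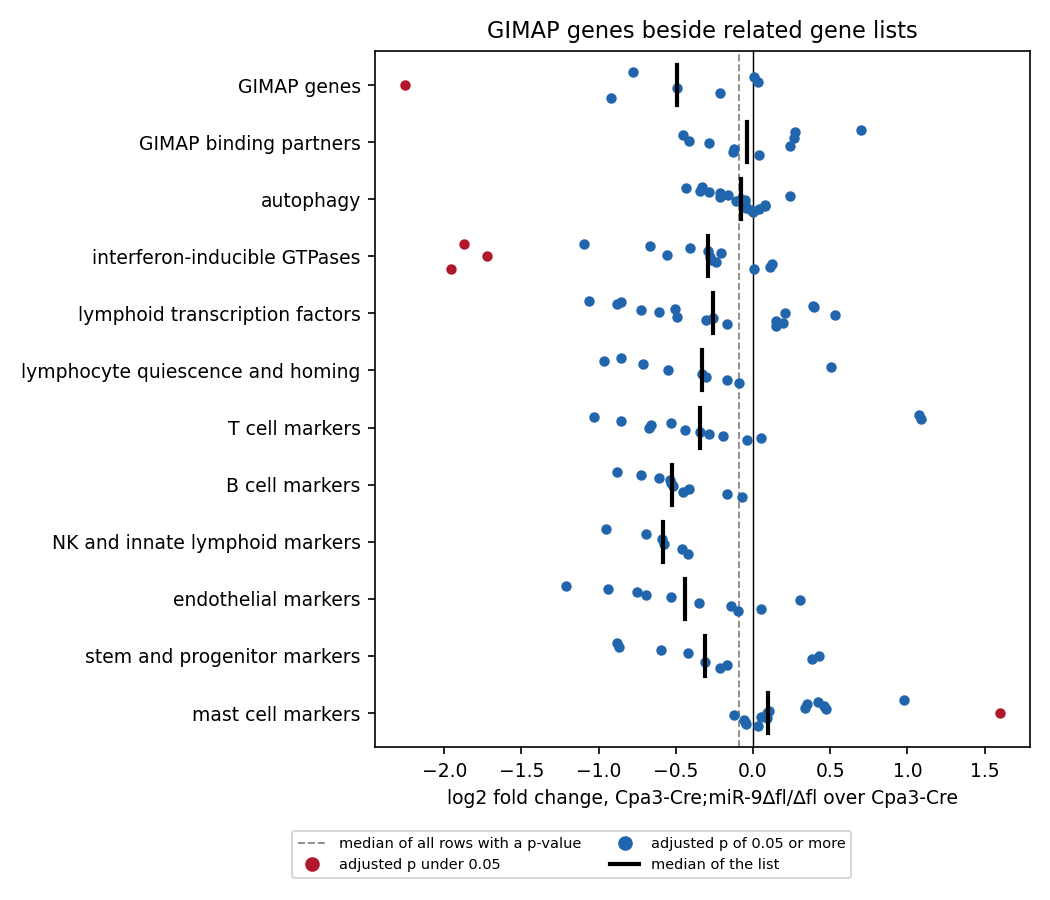
Log2 fold change, miR-9 line relative to Cpa3-Cre control, from the authors' deposited table, for each gene with a p-value in 12 lists; black bars are list medians and the dashed line is the median of all rows, -0.092. The GIMAP median is -0.49, and those of the T cell, B cell and NK lists are -0.34, -0.52 and -0.58. Those of endothelial markers and of stem and progenitor markers are -0.44 and -0.31, and that of mast cell markers is 0.095.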

How the data were processed

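Total RNA depleted of ribosomal RNA was sequenced as strand-marked paired 50-base reads. Per the submitters' processing notes, the tools were STAR, HTSeq, DESeq, DESeq2 and Cuffdiff and the builds mm10 and GRCm38; no source states versions, filters, the strand setting or shrinkage. For each gene the authors deposited, as the file headers name them, the miR-9 line's log2 fold change against the control, a signed linear fold score equal to it, and a p-value. The p-values were taken as unadjusted, since they spread nearly evenly between 0 and 1. The 5 columns of values per library have names that match no sample's labels and were not used. The planned count models were therefore not run, and the authors' p-values were used, as the design foresaw for such a table.

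Benjamini-Hochberg adjustment over the 24071 deposited p-values (statsmodels 0.14.6, Python 3.11.15, checked on simulated data) gave calls at an adjusted p under 0.05. Rows of symbols used more than once were left out of lists. Coding sequences, 3' untranslated regions and 50-base windows came from GENCODE M21 transcripts (GRCm38), aligned with Biopython 1.88. The rule for named genes took all members, rows overlapping them, the nearest row on each side, called rows near the cluster, and of each list the called genes or else up to 4 with the smallest p. Sspo, Tmem176a, Aoc1, Fam221a, the uncalled GTPase genes, Cma1, Gabarapl2, Bcl2, Runx1, Runx3, Ets1, Kit and Fcer1a were named after their values were seen, as were the promoter motifs searched. The members and lists were chosen with earlier results of these data known. The values of 1 listed marker gene are not reported here.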

Additional observations from a re-analysis of the deposited data

How the results depend on the processing

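Gimap3 was the 1 called member of 7 under each of the 4 call rules tried. Some changed the threshold, to an unadjusted p under 0.0001 or an adjusted p under 0.10. The others were Benjamini-Yekutieli adjustment (Gimap3 at 0.0255) and adjustment over the 15942 rows that are no predicted model or small RNA (Gimap3 at 0.00176). All 4 reuse the deposited p-values on which the family was selected, so they give the fall of Gimap3 no support of their own. A gene called at an adjusted p under 0.05 must also pass at 0.10. The rules show only that the call did not hinge on these choices of threshold or adjustment. The number of all genes called was 233 at an adjusted p under 0.10 (165 higher, 68 lower) and 24 by Benjamini-Yekutieli adjustment (11 higher, 13 lower), against 99 (59 higher, 40 lower). Without Gimap1, whose row overlaps another, the members' median was -0.63, against -0.49. Medians of lists are given over genes with a p-value; over all rows of a list they were -0.12 for the reported partners and -0.41 for the interferon-induced GTPases, and -0.67 for those GTPases without genes that overlap another row. Count models, other pseudocounts, low-count filters and leaving out libraries were not run, since the columns per library were not used. No paired analysis was possible because the columns carry no replicate number of the labels and the values come from the authors' own test.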

Other observations

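Markers of other cells that a marrow culture can hold were also read. Of all rows with a p-value, 59.8 percent were below 0, 0.411 percent were called and 7.92 percent had an unadjusted p under 0.05. Of 10 endothelial markers with a p-value 8 were below 0, with a median of -0.44 in the authors' deposited table, and none was called; Emcn, an endothelial sialomucin gene, had an unadjusted p under 0.05 (-1.21, p = 0.0194, adjusted p = 0.457). Of 9 stem and progenitor markers 7 were below 0 (77.8 percent), with a median of -0.31 and none called. Ly6a, the gene of the stem cell antigen Sca-1, was at -0.88 by the authors' deposited table, with p = 0.0371 (adjusted p = 0.574). None of the 12 neutrophil markers and 2 of the 13 monocyte and macrophage markers with a row carried a p-value there. Of those 2, Apoe was at -1.31 (p = 0.00326, adjusted p = 0.190) and Cx3cr1 at 0.77 (p = 0.0970) in the authors' deposited table. Over all rows 1478 of 25549 had no p-value.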
